A study of Homo sapiens with 12 samples.

Results

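In all, 6 libraries of SCC-15 cells were compared: 3 with a short hairpin RNA against FMOD, shRNA1, and 3 with a negative-control hairpin, NC. They are 6 of the 12 libraries of the series, chosen by their labels alone, and the other libraries carry 2 further hairpins against the same gene. SCC-15 is an established line from a human oral squamous cell carcinoma, and the labels give this line for every group and tell the groups apart only by hairpin. The cells were collected 48 hours into the experiment and sequenced as bulk RNA. The question set by the study was what FMOD depletion does to the transcriptome. The sources used here do not say how the hairpins were delivered or whether a group is a single clone or a pool. They also do not say whether the 3 libraries of a group come from separate cultures. The p-values therefore measure only the spread between libraries. That spread was estimated over all 12 libraries of the series, including those of a further hairpin, shRNA3, whose replicates spread widely.

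FMOD encodes fibromodulin, which belongs to the small leucine-rich proteoglycans. This secreted matrix protein binds collagen fibrils and can bind TGF-beta. A short hairpin RNA is processed into a small RNA that guides the silencing machinery to a matching transcript. Squamous carcinoma cells usually keep the keratins and desmosomes of stratified epithelium, and shifts among basal, simple-epithelial and mesenchymal genes, in the cell cycle and in interferon and antigen-presentation genes are common ways to describe how such cells differ.

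FMOD (chromosome 1, 203340628 to 203351758, minus strand, GENCODE 29) held 2, 2 and 3 counts in the NC libraries and 0 in each shRNA1 library. All 6 values lie at or under the floor of 3 counts, so no fold change is given and the knockdown could not be measured at this depth. Library totals ranged from 17857766 to 18311598 counts in NC and from 18821228 to 19567192 in shRNA1. Mitochondrial transcripts took 2.18% to 2.75% of the counts in NC and 1.62% to 1.81% in shRNA1. Among 15045 genes well above the floor, 0.897% to 1.16% differed at least 2-fold between any 2 NC libraries and 0.738% between shRNA1 libraries 1 and 2. The library labelled shRNA1 replicate 3 stood apart from these, with 5.5% and 3.87% of the genes. Between an NC and an shRNA1 library the share was 41.1% to 44.2%. Whether the NC and shRNA1 cells descend from one line was not tested.

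The squamous identity of the line was read from 10 markers, all of which were expressed. Their summed level was 2377 to 2597 CPM (each gene's count relative to its library's total, scaled by the TMM method so that libraries can be compared) in NC and 2086 to 2541 CPM in shRNA1. The makeup of that sum differed: KRT5 fell, KRT14, KRT6A, KRT17 and PERP rose, PKP1 fell, and TP63, DSG3, SFN and S100A2 did not pass the test. The 7 pan-epithelial markers summed to 2048 to 2156 CPM in NC and 3604 to 4576 CPM in shRNA1, with KRT8, KRT18 and KRT19 higher, CDH1, ESRP1 and CLDN7 lower and EPCAM not passing the test. Of 10 fibroblast markers 4 were tested, and COL1A1, COL1A2, LUM and PDGFRB all fell. Their list summed to 56.9 to 59.9 CPM in NC and 15.6 to 21.8 CPM in shRNA1. COL3A1, DCN, FAP and POSTN were at or near 0 in both groups. Of 12 immune markers CD68, which many cell types express, made up nearly all of the sums of 59.8 to 77.1 CPM in NC and 44.5 to 98.1 CPM in shRNA1, and MS4A1, TYROBP and NKG7 were at 0 in all 6 libraries. The 8 endothelial markers summed to 18.4 to 24.0 CPM in NC and 5.47 to 7.17 CPM in shRNA1, with EMCN at 0. Most of the NC sum was CDH5, at 15.4 to 20.5 CPM. Of the 4 endothelial markers tested, CDH5 and VWF fell and PECAM1 and ESAM rose. PECAM1 went from 0.101 to 0.197 CPM in NC to 2.09 to 2.94 CPM in shRNA1. The 11 melanocyte and neural markers, mostly TUBB3, summed to 53.8 to 73.8 CPM in NC and 90.3 to 98.7 CPM in shRNA1, and the 7 smooth muscle markers to 15 to 16.1 and 11.8 to 20.3 CPM. Of the 6 melanocyte and neural markers tested TUBB3 rose and 4 fell, and of the 6 smooth muscle markers tested 4 rose and 2 fell. In bulk RNA, fewer cells of a kind and less RNA per cell cannot be told apart, and the part of these marker shifts in the results that follow was not tested.

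Of 17532 genes tested, 10056 (57.4%) passed the test for a difference between shRNA1 and NC, at an adjusted p under 0.05 by edgeR's quasi-likelihood test. They comprised 4693 genes called higher in shRNA1 (26.8%) and 5363 called lower (30.6%). These shares are the background against which each gene group is read. The median log2 change over all tested genes was -0.02, and the median size of change, in either direction, was 0.92. All 3 shRNA1 libraries lay above all 3 NC libraries for 35.7% of the tested genes and below them for 38.6%.

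The falls were larger than the rises. Genes called lower had a median log2 change of -1.92, with an interquartile range from -3.58 to -1.10, while genes called higher had a median of 1.33, with a range from 0.87 to 2.18. A change of at least 2-fold was passed by 3162 higher genes (18.0% of those tested) and 4230 lower genes (24.1%). A log2 change of 4 or more was reached by 21.5% of the genes called lower and 9.99% of those called higher. In the class below 0.5 on the log2 scale, 4809 of 5205 genes did not pass the test. In the class from 0.5 to 1, 1289 rose and 979 fell, and from 1 to 2 the numbers were 1833 and 1658. At 6 or more, 653 fell and 234 rose. The median level of the lower genes was 14.9 CPM in NC and 2.67 CPM in shRNA1, and that of the higher genes was 18.2 and 45.9 CPM. Transcripts read in NC but at 3 or fewer counts in every shRNA1 library numbered 813, against 433 read only in shRNA1.

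**Figure D1:**
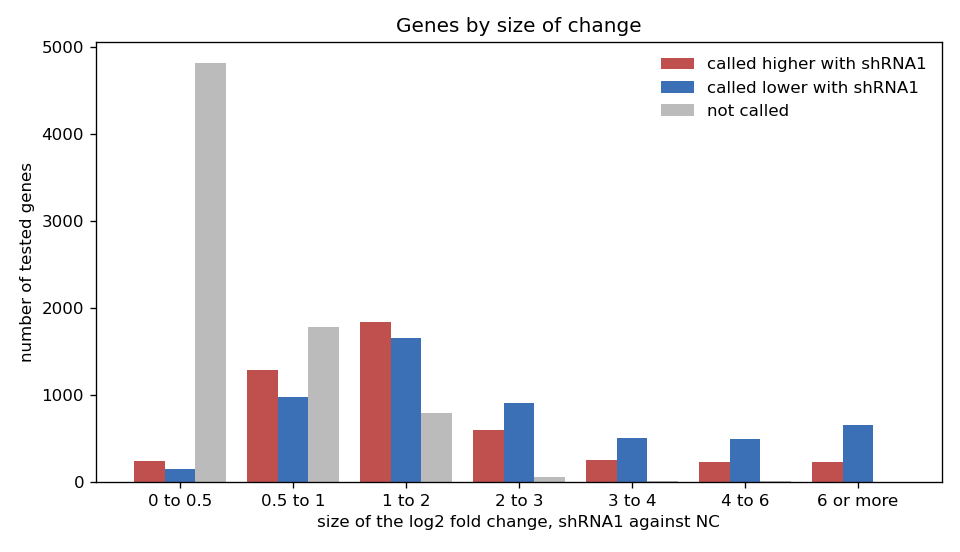
Number of tested genes (y axis) in each class of the size of the log2 fold change between shRNA1 and NC (x axis), with bars for genes called higher, called lower and not called. Higher calls outnumber lower ones up to a size of 2, and lower calls outnumber higher ones in every class above it.

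Gene types did not share the change equally. The 14050 protein-coding genes split nearly evenly, with 29.1% higher and 29.6% lower and a median of 0.06. The 2149 long non-coding genes leaned lower, with 16.6% higher, 34.8% lower and a median of -0.51. Within them, 38.7% of 846 lincRNA genes and 32.5% of 925 antisense genes were lower. Whether reads were counted by strand is not given in the sources used here, so an antisense gene and the gene it overlaps cannot be told apart, and 56.1% of all tested genes overlap a gene on the other strand. Among 677 pseudogenes, whose reads may come from their parent genes, 19.8% were higher and 32.2% lower, with a median of -0.31. Of 204 processed pseudogenes, 22.1% were lower.

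The split differed by level. Genes with a mean of 1 to 10 CPM over the 6 libraries were 18.8% higher and 42.7% lower, with a median of -0.67, whereas those at 100 CPM or more were 39.2% higher and 22.5% lower, with a median of 0.24. At 10 to 100 CPM, 31.3% of protein-coding genes were higher and 25.6% lower, while long non-coding genes of the same level were 19.2% higher and 36.7% lower. At 100 CPM or more, 22.3% of protein-coding and 35.0% of 20 long non-coding genes were lower. At 1 to 10 CPM the lower shares were alike, at 42.8% of protein-coding and 41.8% of 1036 long non-coding genes. Under 1 CPM they were 35.9% and 26.4%, the latter of 916 genes. Long non-coding genes were thus called lower more often than protein-coding genes of the same level only at 10 CPM or more. With every library thinned to 17286934 counts, 16386 to 16701 genes reached 10 counts in NC and 15064 to 15174 in shRNA1. For long non-coding genes these numbers were 1768 to 1919 and 1434 to 1536, so that neither range overlapped between the groups. Protein-coding genes took 93.8% to 95.7% of all counts in NC and 96.1% to 96.4% in shRNA1, and small or structural RNAs took 1.58% to 2.77% and 0.908% to 1.03%.

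**Figure D2:**
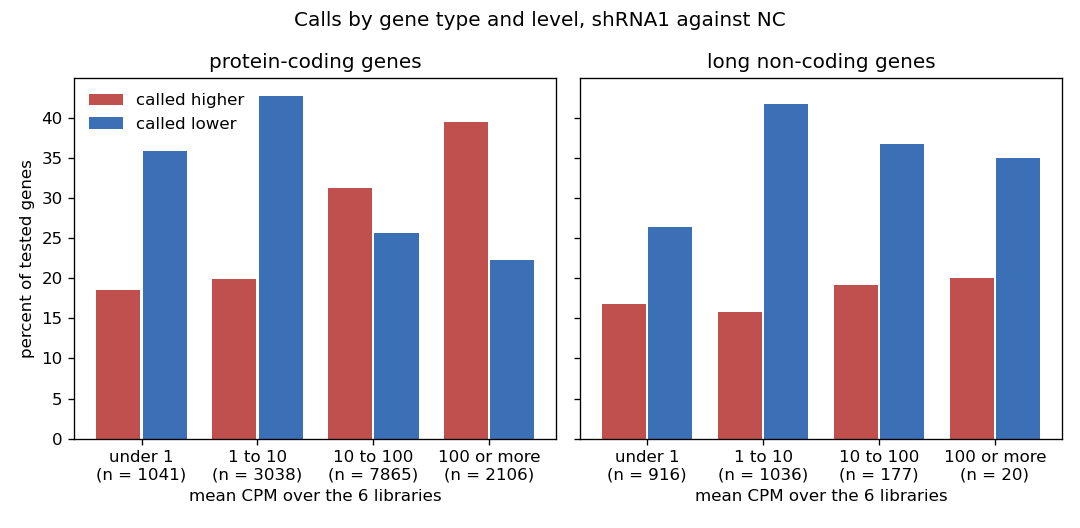
Percent of tested genes called higher or lower with shRNA1 (y axis) by mean CPM over the 6 libraries (x axis, number of genes under each class), for protein-coding genes on the left and long non-coding genes on the right. Protein-coding genes turn from mostly lower to mostly higher as the level rises, and long non-coding genes are more often lower in all 4 classes.

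The change was also uneven along the genome. On chromosome 4, 44.9% of 572 tested genes were higher and 21.0% lower, with a median of 0.62. Chromosome 8 (37.7% and 27.5%) and chromosome 3 (35.0% and 28.4%) also leaned higher. Chromosome 7 leaned lower, with 17.5% of 878 genes higher, 39.4% lower and a median of -0.34, and chromosomes 11 (23.7% and 39.1%) and 9 (24.1% and 38.3%) did likewise. Of 402 windows of 5 Mb with at least 15 tested genes, 281 had a median between -0.5 and 0.5, 22 lay below -1 and 16 above 1. In the lowest, the first 5 Mb of chromosome 9, 18 of 23 genes were lower and 0 higher (0 by DESeq2 and at an unadjusted p under 0.05 too), with a median of -2.20. Among them were the cytokine-receptor kinase JAK2, DOCK8 and KANK1. On chromosome 3 from 110 to 115 Mb, 21 of 29 genes were lower and 0 higher, again by either tool, with a median of -1.71, while from 30 to 35 Mb, which holds the TGF-beta receptor gene TGFBR2, 15 of 19 were higher, with a median of 1.40. The highest window was chromosome 19 from 20 to 25 Mb, where 11 of 19 genes were higher, with a median of 4.10, or 2.24 when genes at the floor are set to their bound. It holds a cluster of zinc finger genes, of which ZNF254, ZNF493, ZNF91 and others rose, and 9 of its genes were read only in shRNA1. Zinc finger genes of one cluster resemble each other, so reads may be split among them. These windows and genes were singled out for their values.

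**Figure D3:**
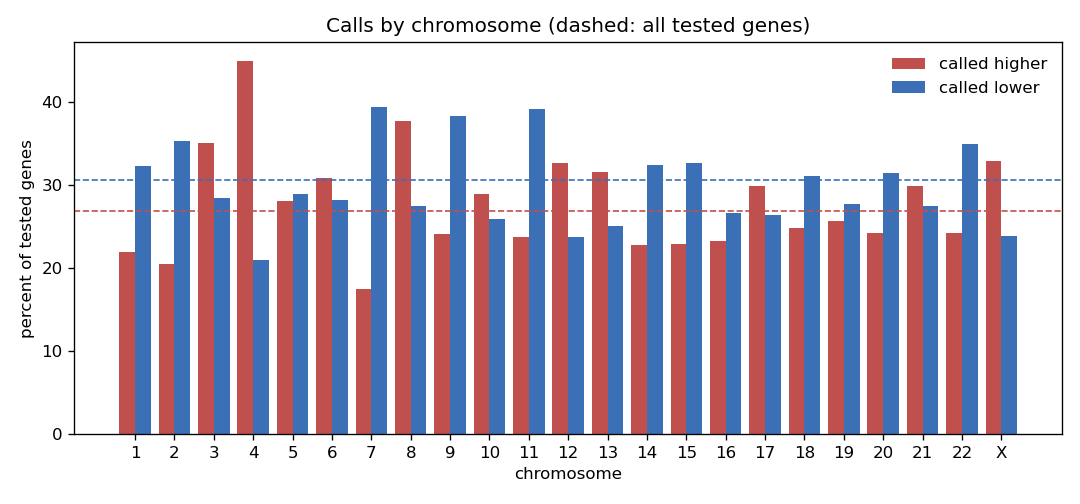
Percent of tested genes called higher or lower with shRNA1 (y axis) for each chromosome (x axis), with dashed lines at the shares over all tested genes, 26.8% higher and 30.6% lower. Chromosome 4 has the highest share of higher calls and chromosome 7 the highest share of lower calls.

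Genes of DNA replication rose almost as a block. Of 30 tested, 23 were higher (76.7%, against 26.8% of all genes) and 1 lower, with a median of 1.13. MCM2, a subunit of the replicative helicase, was at 123, 135 and 112 CPM in NC and 387, 338 and 346 CPM in shRNA1. That is a 2.89-fold rise (log2 1.53, SE 0.14, adjusted p = 4.15e-06). PCNA, the sliding clamp of the DNA polymerases, was at 56.0, 69.5 and 66.7 CPM in NC and 194, 223 and 179 CPM in shRNA1, a rise of 3.11-fold (adjusted p = 2.36e-05). Every shRNA1 library lay well above every NC library for both genes, where 35.7% of all tested genes were higher in shRNA1 without overlap. RRM2, a subunit of ribonucleotide reductase, rose 3.07-fold, with library 3 at 363 CPM above the other shRNA1 libraries at 180 and 213. The exception was TK1, the thymidine salvage kinase, which fell by 0.52 on the log2 scale (adjusted p = 0.0163). Its call was lost without NC library 2 (adjusted p = 0.0769), shRNA1 library 1 (0.0654) or shRNA1 library 2 (0.0625).

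The promoters of MCM2 and PCNA are shown because many replication genes carry sites for the E2F factors near their start. They run from 200 bases before the start site to 20 after it in RefSeq on GRCh38.p14: chr3:127598211-127598430 on the plus strand for MCM2 and chr20:5126603-5126822 on the minus strand for PCNA. Capitals mark matches, on either strand, to TTTCCCGC, TTTGGCGC, TTTCGCGC or TTTGCCGC, and matches may overlap each other.
MCM2: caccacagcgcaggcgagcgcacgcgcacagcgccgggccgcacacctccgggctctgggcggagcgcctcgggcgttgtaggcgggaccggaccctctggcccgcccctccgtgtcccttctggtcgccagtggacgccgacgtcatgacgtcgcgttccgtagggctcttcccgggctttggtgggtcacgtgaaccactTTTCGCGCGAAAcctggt
PCNA: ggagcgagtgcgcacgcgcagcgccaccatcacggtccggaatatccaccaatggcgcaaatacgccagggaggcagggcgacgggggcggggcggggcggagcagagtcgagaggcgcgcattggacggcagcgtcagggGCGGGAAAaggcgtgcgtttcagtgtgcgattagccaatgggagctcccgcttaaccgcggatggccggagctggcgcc
Over the full window of 250 bases before to 50 after the start, such a match was found in 3.33% of 27305 promoters and in 5.1% of the 12109 that belong to tested genes. It was found in 14 of the 25 replication promoters in the table (56.0%) and in 2 of 25 promoters of the mitosis list. Of the 14 replication genes with a match 12 rose, and of the 11 without one 7 rose. A match is a run of letters and not a shown binding site.

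Mitotic genes leaned the same way. Of 30, 17 were higher and 1 lower, with a median of 0.69. CCNB1, the mitotic cyclin B, was at 70.2, 82.7 and 77.1 CPM in NC and 196, 216 and 236 CPM in shRNA1, a 2.82-fold rise (adjusted p = 9.61e-06). The kinases PLK1 and AURKA rose 1.73-fold and 1.97-fold, and the spindle factor TPX2 rose 2.01-fold. NDC80, of the outer kinetochore, fell by 0.78 on the log2 scale (adjusted p = 0.0101). Of 23 genes of G1 control 13 were higher and 3 lower, with a median of 1.01. TFDP1, the partner subunit of E2F factors, rose 3.00-fold, and RBL2, a pocket protein that restrains them, went from 127, 117 and 138 CPM to 19.7, 23.8 and 39.4 CPM, a 4.63-fold fall (adjusted p = 0.000298). The other falling genes were CCND2 and CDKN2B. CCND1, the main D-type cyclin of many epithelia, did not pass the test (267, 277 and 279 CPM in NC, 298, 238 and 167 CPM in shRNA1), nor did the cell cycle inhibitors CDKN1A (log2 0.64, adjusted p = 0.0845) and CDKN2A (log2 -0.69, adjusted p = 0.248). Of 20 p53 targets 5 were higher and 4 lower, with a median of 0.21, and the lower calls numbered 2 without NC library 1. Among them MDM2 rose 2.31-fold while BAX did not pass the test (log2 0.30, adjusted p = 0.0749).

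RNA-processing and protein-quality genes also leaned higher. Of 35 splicing factors 18 were higher and 1 lower, with a median of 0.70. SRSF1, which binds exonic enhancers, was at 48.1, 71.2 and 70.3 CPM in NC and 191, 261 and 468 CPM in shRNA1, a 4.85-fold rise (adjusted p = 0.000188). HNRNPA1 did not pass the test: shRNA1 library 3, at 1643 CPM, stood far above libraries 1 and 2 at 551 and 667 CPM, and NC was at 534 to 644 CPM. The list's median over NC was 0.40, 0.46 and 0.98 in shRNA1 libraries 1, 2 and 3, so library 3 was the highest. SF3B1, of the U2 snRNP, was the falling member (log2 -0.73, adjusted p = 0.0228). It lost its call when any of NC library 1 or 3 or shRNA1 library 1 or 2 was left out (adjusted p from 0.0522 to 0.0944). Of 31 proteasome subunits 19 were higher and 0 lower by edgeR, with a median of 0.54, and 0 were lower by DESeq2 or at an unadjusted p under 0.05. In a fit without the shRNA3 libraries 1 was lower. PSMD2 rose 1.46-fold and PSMB5 rose 1.39-fold. Of 23 heat shock chaperones 13 were higher and 2 lower (HSPA2 and HSPA12A), with a median of 0.60. HSPA8, the constitutive cytosolic chaperone, was at 377, 415 and 345 CPM in NC and 1390, 1704 and 2116 CPM in shRNA1, a 4.58-fold rise (adjusted p = 8.07e-06). HSP90AA1 rose 2.76-fold, and HSPB1 did not pass the test (log2 -0.30, adjusted p = 0.41).

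Ribosomal protein genes as a list stayed near 0, with a median of 0.10 over 50 genes, 7 higher and 3 lower. RPS3 was an exception, at 2350, 2516 and 2359 CPM in NC and 765, 715 and 761 CPM in shRNA1, a 3.22-fold fall (adjusted p = 0.000111). RPS6 fell 2.12-fold and RPSA rose 1.77-fold. Ribosomal protein genes have many processed copies, so these values depend on how shared reads were counted. Chromatin regulators had 18 of 35 genes higher and 6 lower, with a median of 0.68. EZH2, the methyltransferase of Polycomb complex 2, rose 2.63-fold, the DNA methyltransferase DNMT3B rose 3.38-fold and the bromodomain protein BRD2 rose 2.65-fold. HDAC3 fell by 0.49 on the log2 scale (adjusted p = 0.00457). The lower calls in this list numbered 3 without shRNA1 library 2.

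Of 34 glycolysis and hypoxia genes 15 were higher and 5 lower, with a median of 0.50. The glucose transporter SLC2A1 rose 1.90-fold, from 197, 217 and 220 CPM to 433, 410 and 360 CPM, and the pyruvate kinase PKM rose 1.72-fold. LDHA, lactate dehydrogenase, rose 1.67-fold (adjusted p = 0.011), a call that was lost without NC library 1 (adjusted p = 0.0501). ALDOA, the aldolase of the same pathway, fell 1.78-fold, from 2021, 2749 and 2517 CPM to 1383, 1410 and 1310 CPM. The pathway thus moved in both directions, and the hypoxia gene CA9 did not pass the test (log2 0.46, adjusted p = 0.427).

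Of 22 genes of fatty acid metabolism 10 were higher and 6 lower, with a median of 0.36. SCD, the stearoyl-CoA desaturase, was at 96.6, 79.7 and 75 CPM in NC and 618, 617 and 578 CPM in shRNA1, a 7.21-fold rise (adjusted p = 5.67e-05). Fatty acid synthase, FASN, rose 2.13-fold, and HADHA, of mitochondrial beta-oxidation, fell 2.03-fold. Of 25 cholesterol genes 11 were higher and 5 lower, with a median of 0.50, and the higher calls numbered 7 without NC library 2 or without NC library 3. DHCR7, which completes the synthesis of cholesterol, fell 2.08-fold, from 151, 136 and 130 CPM to 61.3, 59.1 and 80.4 CPM. Nuclear genes of the respiratory chain were called higher in 14 and lower in 7 of 38 cases, with a median of 0.18, and the higher calls numbered 7 without NC library 1 and 9 without NC library 2. ATP5F1B rose 1.79-fold and SDHA fell 1.85-fold. Of 13 genes of the mitochondrial DNA 2 were lower, MT-ND4 and MT-ND6, and 0 higher by edgeR or DESeq2 (1 at an unadjusted p under 0.05), with a median of -0.01. In an edgeR fit of only the NC and shRNA1 libraries 2 were higher.

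**Figure D4:**
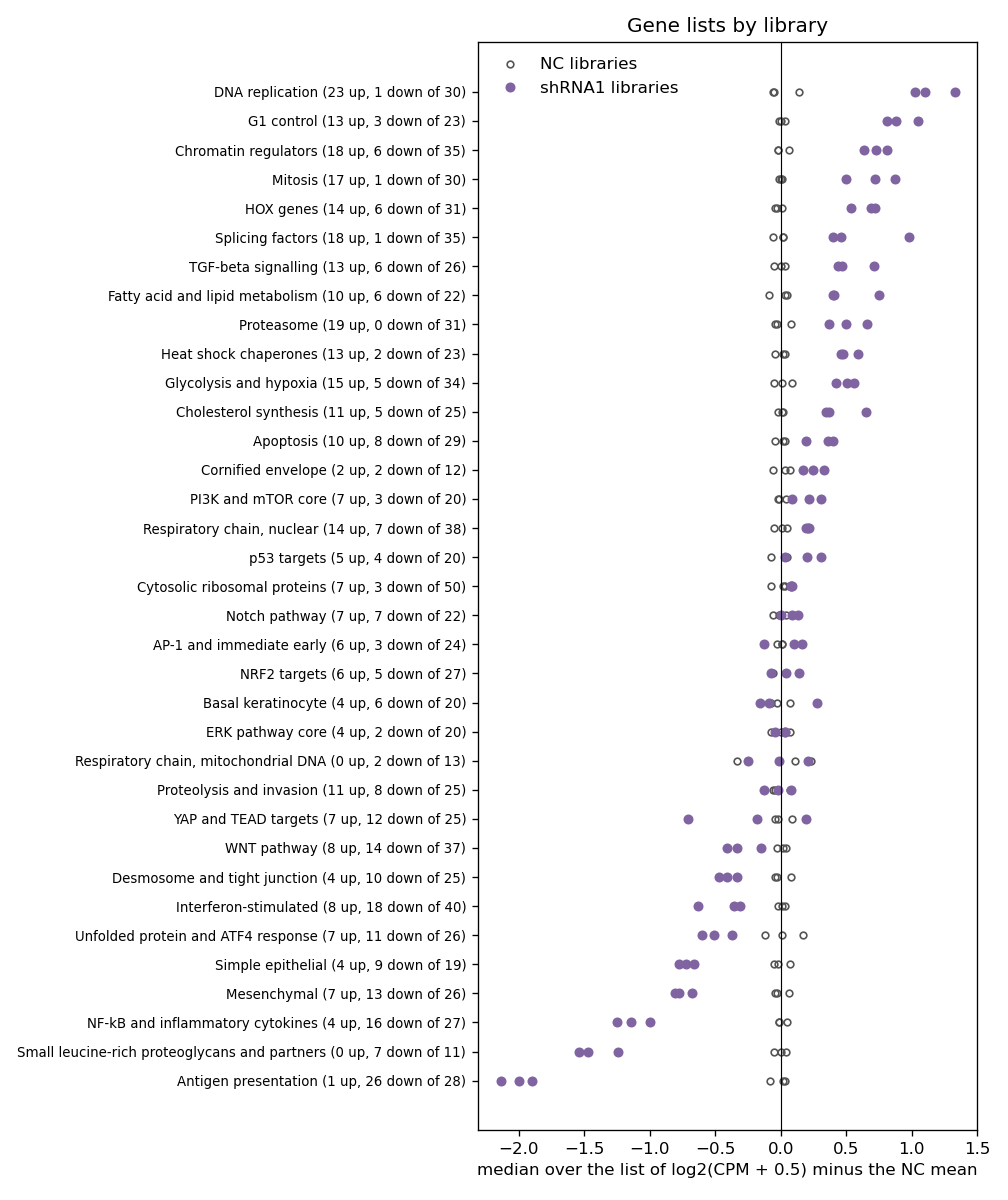
Median over each gene list of log2(CPM + 0.5) minus the NC mean (x axis) in every library, for the lists (y axis) with at least 10 tested genes. Open circles are the 3 NC libraries and filled circles the 3 shRNA1 libraries. Antigen presentation is lowest, at -1.90 to -2.14, and DNA replication highest, at 1.03 to 1.33, and the spread among shRNA1 libraries is widest for the YAP and TEAD targets and the splicing factors.

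Keratin genes moved in both directions. KRT5, the basal type II keratin, was at 1013, 1049 and 965 CPM in NC and 16.5, 18.6 and 29.1 CPM in shRNA1, a 47.1-fold fall (adjusted p = 1.76e-07). KRT14, its usual partner, moved the opposite way, from 6.51, 6.65 and 9.59 CPM to 57.9, 52.2 and 56.5 CPM (7.31-fold, adjusted p = 0.00148). KRT19, a small keratin of simple and some basal epithelia, was at 0.909, 0.591 and 1.01 CPM in NC and 247, 257 and 323 CPM in shRNA1. It rose 327-fold (adjusted p = 1.08e-08). KRT13, a keratin of the suprabasal oral mucosa, had at most 4 counts in any NC library and stood at 380, 421 and 468 CPM in shRNA1. KRT8, a simple-epithelial keratin, rose 2.69-fold and KRT17 rose 2.07-fold. As lists, the 20 basal keratinocyte genes had 4 higher and 6 lower, with a median of 0.10, and the 19 simple epithelial genes 4 higher and 9 lower, with a median of -0.71. The 4 higher simple epithelial genes were the keratins KRT7, KRT8, KRT18 and KRT19, and the 9 lower ones held no keratin. Of 36 genes of the cornified envelope only 12 passed the filter on low counts, 2 rose and 2 fell, with a median of 0.38, and 4 rose without shRNA1 library 3. TP63, the lineage factor of stratified epithelia, did not pass the test (163, 175 and 156 CPM in NC, 141, 124 and 136 CPM in shRNA1).

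Of 25 desmosome and tight junction genes 10 were lower (40.0%, against 30.6% of all genes) and 4 higher, with a median of -0.31. CDH1, E-cadherin of the adherens junction and a member of the simple epithelial list, was at 336, 322 and 310 CPM in NC and 41.1, 38.2 and 35.4 CPM in shRNA1, an 8.44-fold fall (adjusted p = 5.36e-07). ESRP1, of the same list, directs epithelial splicing and fell 5.56-fold. CLDN1, a tight junction claudin, was at 497, 511 and 521 CPM in NC and at 0, 0.0484 and 0.103 CPM in shRNA1, that is, at 2 counts or fewer. The groups were far apart for all 3 genes. DSP, the desmosomal plakin desmoplakin, rose instead, 2.80-fold, from 325, 265 and 276 CPM to 844, 726 and 855 CPM. EPCAM (log2 -0.26, adjusted p = 0.244) and TJP1 (log2 -0.25, adjusted p = 0.48) did not pass the test.

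Mesenchymal genes changed in both directions. Of 26 tested, 13 were lower and 7 higher, with a median of -0.89. VIM, vimentin, was at 3.43, 3.30 and 3.04 CPM in NC and 356, 369 and 611 CPM in shRNA1, a 136-fold rise (adjusted p = 5.45e-08). ZEB1, a repressor of epithelial genes, rose 15.8-fold, from 0.394 to 0.606 CPM to 7.27 to 8.52 CPM. SPARC, a collagen-binding matrix protein, was at 748, 686 and 742 CPM in NC and 18.4, 16.6 and 29.8 CPM in shRNA1, a 33.6-fold fall (adjusted p = 1.71e-06). FN1, fibronectin, did not pass the test: its shRNA1 libraries were at 181, 159 and 361 CPM and NC at 142 to 174 CPM. The other lower genes included the collagens COL1A1, COL1A2, COL6A1 and COL6A2. The fall of collagen genes stands beside that of the 4 tested fibroblast markers, which share COL1A1 and COL1A2 with this list.

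The family to which FMOD belongs was sparsely expressed. Of 23 small leucine-rich proteoglycans and partners 11 passed the filter on low counts, and 7 of these fell and 0 rose by edgeR, with a median of -1.62. By DESeq2 9 fell and 0 rose, and at an unadjusted p under 0.05 the numbers were also 9 and 0. In an edgeR fit without the shRNA3 libraries 1 rose. The 7 called by edgeR were the proteoglycans BGN, LUM and CHAD and the partners LOXL2, LOXL4, COL1A1 and COL1A2. LOXL2, COL1A1 and COL1A2 were also counted in the mesenchymal list. BGN, biglycan, was at 9.34, 8.22 and 8.02 CPM in NC and at 4 or fewer counts in each shRNA1 library. LUM, lumican, was at 1.62, 1.13 and 0.710 CPM in NC and at 0 in all shRNA1 libraries, at least 7.45-fold lower with a floor of 3 counts per library. The crosslinking enzyme LOXL2 was at 488, 531 and 535 CPM in NC and 171, 156 and 177 CPM in shRNA1, a 3.08-fold fall (adjusted p = 0.000128). LOX did not pass the test (log2 -0.67, adjusted p = 0.0584).

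Extracellular proteolysis shifted in both directions. Of 25 genes 11 were higher (44.0%, against 26.8% of all genes) and 8 lower (32.0%, against 30.6%), with a median of -0.10. Proteases were called in both directions: MMP1, MMP3, MMP10, MMP12 and CTSL rose, and MMP2, MMP7, MMP14, MMP15, PLAU, PLAT and ADAM10 fell. MMP14, a membrane-bound matrix metalloproteinase, was at 481, 392 and 387 CPM in NC and 0.448, 0.678 and 0.619 CPM in shRNA1, a 713-fold fall (adjusted p = 4.35e-07). PLAU, urokinase, went from 469, 495 and 523 CPM to 8.66, 7.80 and 10.1 CPM, a 56.0-fold fall. TIMP1, an inhibitor of metalloproteinases, rose 3.92-fold, and its relative TIMP2 fell 1.82-fold. TIMP3, of the same family, was also called higher, so its members moved in both directions.

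Among TGF-beta pathway genes 13 of 26 were higher and 6 lower, with a median of 0.46. The receptor TGFBR2 was at 40.7, 41.8 and 41.4 CPM in NC and 162, 165 and 178 CPM in shRNA1, a 4.08-fold rise (adjusted p = 0.000461). ID1, a target of BMP signals, rose 7.53-fold, from 37.2, 64.5 and 63.2 CPM to 331, 380 and 530 CPM. THBS1, thrombospondin 1, which can release TGF-beta from its latent form, fell 8.48-fold, from 969, 812 and 726 CPM to 63.3, 64.1 and 168 CPM. The ligand TGFB1 did not pass the test (log2 0.48, adjusted p = 0.323).

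YAP and TEAD targets had 12 of 25 lower and 7 higher, with a median of -0.05. Their median over NC was -0.71, -0.18 and 0.19 in shRNA1 libraries 1, 2 and 3, so the list differed among libraries. YAP1 itself rose 1.76-fold, and the receptor tyrosine kinase AXL fell 2.20-fold. Notch genes had 7 of 22 higher (31.8%, against 26.8% of all genes) and 7 lower (31.8%, against 30.6%), with a median of -0.01. The receptor NOTCH1 rose 2.36-fold, from 103, 89.7 and 86.1 CPM to 256, 221 and 181 CPM, whereas NOTCH3 was at 301, 247 and 268 CPM in NC and 1.74, 0.727 and 0.774 CPM in shRNA1. NOTCH3 fell 250-fold (adjusted p = 3.56e-08). The Notch target HES1 did not pass the test (log2 -0.26, adjusted p = 0.482). Of 37 WNT genes 14 were lower (37.8%, against 30.6% of all genes) and 8 higher (21.6%, against 26.8%), with a median of -0.36. CTNNB1, beta-catenin, rose 2.30-fold. The ligand WNT5A was at 7.42, 7.63 and 9.39 CPM in NC and at 0 in shRNA1, at least 52.6-fold lower. The feedback target AXIN2 did not pass the test (log2 0.52, adjusted p = 0.46).

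The core of the ERK cascade moved little. Of 20 genes 4 were higher and 2 lower (30.0% called, against 57.4% of all genes), and the median was 0.00. MAP2K1 was at 167, 142 and 162 CPM in NC and 182, 173 and 138 CPM in shRNA1 (log2 0.06, SE 0.22) and did not pass the test, nor did MAPK3 (log2 -0.30). MAP2K2, a MAP kinase kinase, fell 1.51-fold. Of 20 PI3K and mTOR genes 7 were higher and 3 lower, with a median of 0.20, and the higher calls numbered 4 without NC library 3. PIK3CD, a catalytic subunit of PI3K, fell 8.87-fold. AKT1, a central kinase of the pathway, rose 1.83-fold. Among 24 AP-1 and immediate early genes 6 were higher and 3 lower, with a median of 0.00. MYC was at 69.9, 87.7 and 73.4 CPM in NC and 564, 478 and 412 CPM in shRNA1, a 6.29-fold rise (adjusted p = 9.74e-06). JUND fell 2.02-fold, and JUN (log2 -0.63, adjusted p = 0.251) and FOSL1 (log2 1.04, adjusted p = 0.0608) did not pass the test.

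Antigen presentation had the most uniform change of the large lists. Of 28 genes 26 were lower (92.9%, against 30.6% of all genes) and 1 higher, with a median of -2.06. CD74, the invariant chain of MHC class II, was at 713, 659 and 730 CPM in NC and 0.597, 0.581 and 0.465 CPM in shRNA1, a 1262-fold fall (adjusted p = 2.8e-08). TAP1, which carries peptides into the endoplasmic reticulum, was at 288, 245 and 269 CPM in NC and 80.7, 74.3 and 65.5 CPM in shRNA1, a 3.64-fold fall (adjusted p = 3.13e-06). B2M, the light chain of class I, was at 2218, 2167 and 2607 CPM in NC and 1360, 1440 and 994 CPM in shRNA1. B2M was 1.84-fold lower (adjusted p = 0.0156), but the call was lost without NC library 3 (adjusted p = 0.0534) or shRNA1 library 3 (0.0639). Its groups did not overlap, and 38.6% of all tested genes were lower in shRNA1 without overlap. HLA-B and HLA-C, heavy chains of class I, fell, and HLA-G rose from 0.640 to 1.22 CPM to 3.46 to 6.78 CPM. HLA genes resemble each other and vary among people, so reads may be split or lost among them. The transactivator of class II, CIITA, was also lower.

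Interferon-stimulated genes did not move together. Of 40, 18 were lower and 8 higher, with a median of -0.45. ISG15, a ubiquitin-like protein, was at 148, 165 and 131 CPM in NC and 494, 419 and 286 CPM in shRNA1, a 2.70-fold rise (adjusted p = 0.00132). The membrane protein IFITM1 rose 3.83-fold and IFIT1, which binds viral RNA ends, rose 1.69-fold. The 3 named genes thus moved against the larger share of their list.

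The promoters of 2 falling genes, B2M and TAP1, and 2 rising ones, IFIT1 and ISG15, are shown because all 4 hold the core of an interferon-stimulated response element. In RefSeq on GRCh38.p14 they lie at chr15:44711317-44711536 (plus), chr6:32853685-32853904 (minus), chr10:89392423-89392642 (plus) and chr1:1013297-1013516 (plus), each from 200 bases before the start site to 20 after. Capitals mark GAAANNGAAA on either strand, and matches may overlap each other.
B2M: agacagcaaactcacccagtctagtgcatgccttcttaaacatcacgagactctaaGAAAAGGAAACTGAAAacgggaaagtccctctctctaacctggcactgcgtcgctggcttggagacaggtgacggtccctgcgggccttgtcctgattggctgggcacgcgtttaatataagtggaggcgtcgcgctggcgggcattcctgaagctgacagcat
TAP1: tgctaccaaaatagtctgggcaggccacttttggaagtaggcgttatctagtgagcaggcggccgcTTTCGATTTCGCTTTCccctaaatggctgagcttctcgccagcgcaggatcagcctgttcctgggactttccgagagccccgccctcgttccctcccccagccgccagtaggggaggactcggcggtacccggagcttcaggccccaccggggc
IFIT1: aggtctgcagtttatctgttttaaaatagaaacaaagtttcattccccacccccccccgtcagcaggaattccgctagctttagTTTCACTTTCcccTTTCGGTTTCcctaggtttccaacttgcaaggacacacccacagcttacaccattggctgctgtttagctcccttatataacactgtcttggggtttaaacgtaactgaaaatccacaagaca
ISG15: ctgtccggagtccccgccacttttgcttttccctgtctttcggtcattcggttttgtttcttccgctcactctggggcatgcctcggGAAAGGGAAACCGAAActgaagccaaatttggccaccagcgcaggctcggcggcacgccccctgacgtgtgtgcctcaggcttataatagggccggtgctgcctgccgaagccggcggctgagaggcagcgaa
Over the full window, this core was in 3.65% of all promoters and 2.87% of those of tested genes. It was in 7 of 22 antigen presentation promoters in the table (31.8%) and 20 of 31 interferon-stimulated ones (64.5%). All 7 antigen presentation genes with the core fell, and 14 of the 15 without it fell. Of the 20 interferon-stimulated genes with the core 8 fell and 4 rose, and of the 11 without it 6 fell and 1 rose. Presence of the core therefore went with both directions.

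NF-kB and inflammatory genes leaned lower, with 16 of 27 lower, 4 higher and a median of -1.11. The chemokine CXCL8 was at 27.4, 33.4 and 31.5 CPM in NC and 2.14, 3.00 and 3.51 CPM in shRNA1, a 10.6-fold fall (adjusted p = 8.1e-07). TNFAIP2 fell 1.72-fold. NFKB1, a subunit of the factor itself, rose 3.48-fold, from 25, 22.4 and 23 CPM to 79.0, 72.1 and 94.0 CPM. Its inhibitor NFKBIA (log2 -0.13, adjusted p = 0.63) and the cytokine IL1B (log2 -0.97, adjusted p = 0.189) did not pass the test.

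Stress lists gave mixed pictures. Of 26 genes of the unfolded protein and ATF4 responses 11 were lower and 7 higher, with a median of -0.49, and the lower calls numbered 6 without NC library 1 and 7 without NC library 2 or shRNA1 library 2. ASNS, asparagine synthetase, was at 104, 54.3 and 81.6 CPM in NC and 9.60, 4.21 and 13.1 CPM in shRNA1, an 8.91-fold fall (adjusted p = 0.000178). DDIT4, an inhibitor of mTOR signalling, rose 3.05-fold. HSPA5, the chaperone of the endoplasmic reticulum, did not pass the test (log2 -1.14, adjusted p = 0.0778). Its shRNA1 libraries all lay below its NC libraries, as they did for 38.6% of all tested genes. Of 27 NRF2 targets 6 were higher (22.2%, against 26.8% of all genes) and 5 lower (18.5%, against 30.6%), with a median of 0.05. Of these targets NQO1 rose 3.02-fold. Of 29 apoptosis genes 10 were higher (34.5%) and 8 lower (27.6%), with a median of 0.30, so both shares were not far from those of all genes. The BH3-only gene PMAIP1 rose 2.70-fold while BAD fell 2.21-fold. Metallothioneins, which bind zinc and copper, fell in 4 of 5 tested cases, with a median of -2.43. MT2A was at 2580, 4089 and 4294 CPM in NC and 497, 502 and 653 CPM in shRNA1, a 6.63-fold fall (adjusted p = 1.89e-06). The genes of this family are near-identical, so shared reads may be split among them.

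Developmental and germline genes moved in both directions, some of them to or from 0. Of 31 HOX genes 14 were higher and 6 lower, with a median of 0.73. HOXA10 rose 4.02-fold, from 5.10, 5.27 and 6.85 CPM to 18.9, 25.3 and 25.1 CPM, and HOXB7 rose 5.55-fold. HOXB9 fell 3.56-fold, and HOXC10 did not pass the test (log2 0.10, adjusted p = 0.698). Of 26 cancer-testis genes, normally read mainly in germ cells, only 6 passed the filter, 2 rose and 4 fell, with a median of -5.22. MAGEA4 was at 234, 249 and 224 CPM in NC and at 0, 0.0969 and 0.103 CPM in shRNA1. MAGEA1 was at 0 in all NC libraries and at 34.8, 35.6 and 41.7 CPM in shRNA1, at least 245-fold higher. These members of 1 family on chromosome X thus went in opposite directions. Their coding sequences are alike, so split reads cannot be told apart from them.

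**Figure D5:**
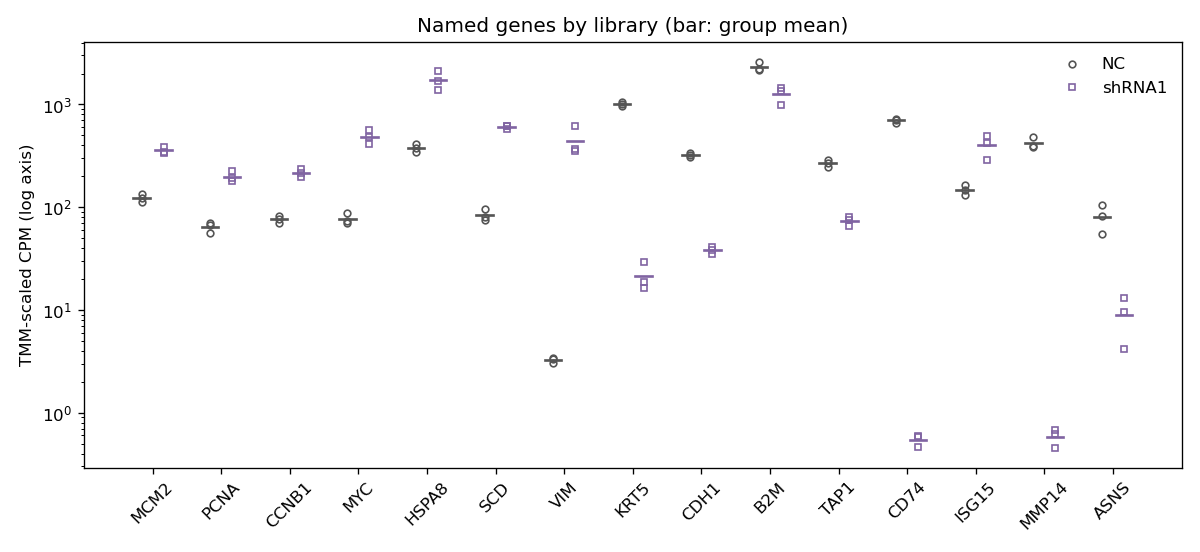
TMM-scaled CPM (y axis, log scale) of 15 named genes (x axis) in each NC library (circles) and shRNA1 library (squares), with bars at the group means. The 15 genes all passed the test, and the groups do not overlap for any of them. Over all tested genes, the shRNA1 libraries all lay above the NC libraries for 35.7% and below them for 38.6%. VIM lies above 350 CPM in shRNA1 and below 4 CPM in NC, and CD74 and MMP14 lie below 1 CPM in shRNA1.

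A direct contrast with a second hairpin against FMOD, shRNA2, gave fewer differences than the contrast with NC. Of the 17532 genes 2158 (12.3%) passed the test, 1014 higher in shRNA1 (5.78%) and 1144 lower (6.53%). The number depends on the shRNA3 libraries, whose replicates spread widely: in a fit without them, chosen after seeing the data, 3603 genes were higher and 3404 lower. Of the 28 antigen presentation genes 1 was higher and 1 lower in shRNA1 than in shRNA2, and of the 31 proteasome genes 0 differed by edgeR (1 at an unadjusted p under 0.05, and 1 higher and 4 lower without the shRNA3 libraries). Of the 30 replication genes 1 was higher and 3 lower, which became 5 and 14. The highest shares of genes higher in shRNA1 were in 2 of the lists. NF-kB and inflammatory genes were higher in shRNA1 in 11 of 27 cases (40.7%, or 61.5% against 20.8% of all genes without the shRNA3 libraries), and YAP and TEAD targets in 10 of 25 (40.0%, or 68.0%). They were followed by mesenchymal genes, higher in 6 of 26 (23.1%), and TGF-beta genes, higher in 5 of 26 (19.2%). Cornified envelope genes were lower in 4 of 12 (33.3%) and simple epithelial genes in 6 of 19 (31.6%, or 63.2% against 19.7%). Among the named genes, the largest difference was in SPARC, at 18.4, 16.6 and 29.8 CPM in shRNA1 and 0.527, 0.282 and 0.609 CPM in shRNA2 (log2 5.49, SE 0.47, adjusted p = 0.000229). FN1 was at 181, 159 and 361 CPM in shRNA1 and 27.9, 33.5 and 29.6 CPM in shRNA2 (log2 2.95, SE 0.37, adjusted p = 0.00173). KRT5 was lower in shRNA1, at 16.5, 18.6 and 29.1 CPM against 82.1, 77.4 and 81.0 CPM (log2 -1.91, SE 0.25, adjusted p = 0.00192). KRT13 and KRT19 each had a log2 difference of -1.79 from shRNA2. These genes kept their calls without the shRNA3 libraries.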

How the data were processed

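RNA was sequenced from 12 SCC-15 libraries, 3 per group, of which the 6 of NC and shRNA1 are compared. The submitters' processing notes name GRCh38, HISAT2 and HTSeq 0.11.2. The authors deposited estimated counts per gene without further scaling, of which 13.8% are not whole, and these were rounded. Samples were grouped by title. TMM scaling, filterByExpr (minimum count 10, minimum total 15) and edgeR 4.0.16's quasi-likelihood test (R 4.3.3, robust, two-sided) were used in a single model of all 12 libraries with 8 residual degrees of freedom, with Benjamini-Hochberg adjustment over 17532 genes and a threshold of 0.05. A fold change is the fitted one; where a group had 0 counts it is a bound from 3 counts per library, and where a group had 10 or fewer counts in every library no fold is given. Totals per library set the counting precision, and floors cover counting error only.

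Gene types and positions came from GENCODE 29, which held 97.2% of the tested genes, and promoters from RefSeq. The 37 pathway lists (1011 entries, 921 tested), the 7 marker lists and the members compared were chosen with earlier results of these data known. Genes named were 3 fixed genes per list, then the rising and the falling gene with the highest mean CPM in it. Some were left out for room, and others were named after their values were seen. Chromosomes and 5 Mb windows stand in for chromosome arms. Alternatives were DESeq2 1.42.0 and its size factors, filters, thinning, fewer groups, stricter thresholds, left-out libraries and a replicate block. Some genes of the lists are not reported here.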

Additional observations from a re-analysis of the deposited data

How the results depend on the processing

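Under all alternatives for shRNA1 against NC, the number of genes called stayed within 1.5 times its value of 10056, from 7383 (mean of at least 50 counts) to 12876 (without the shRNA3 libraries). With 1 library left out the number was 8677 to 9698. DESeq2 called 10540. The contrast with shRNA2 moved most: without the shRNA3 libraries its higher calls went from 1014 to 3603 and its lower calls from 1144 to 3404, a setting added after seeing the data. With a replicate block 9689 genes were called. Same-numbered NC and shRNA1 libraries deviated together at correlations of 0.052, 0.0186 and 0.0253, so the numbers were not taken to pair them. Each NC library correlated best with its own number among the shRNA1 libraries, a hint from the data and not from the design.

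Of 161 named genes none reversed under the alternatives run. Without the shRNA3 libraries, whose within-group coefficient of variation was 0.539 against 0.103 in NC and 0.212 in shRNA1, 20 more named genes were called. That setting also took the ribosomal list from 7 higher and 3 lower to 20 and 13, the lower calls of the ERK list from 2 to 6, of glycolysis from 5 to 9 and of mitochondrial DNA from 2 to 6, the lower calls of the ATF4 list from 11 to 17 and the higher p53 calls from 5 to 9. With only the NC and shRNA1 libraries, higher interferon calls went from 8 to 13, and AP-1 calls from 6 and 3 to 11 and 9. With a mean of at least 50 counts, the lower HOX calls went from 6 to 3 and the higher NF-kB calls from 4 to 2. FMOD itself was too low to test at this depth.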
